A study of Mus musculus with 8 samples.

Results

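Gas5, Snhg1, Snhg3, Snhg4, Snhg5, Snhg6, Snhg8, Snhg12, Snhg15 and Snhg20 were examined as a class of snoRNA host genes whose spliced RNA is held to decay upon translation, and these 10 of the 53242 genes in the deposited tables were selected by gene name. RNA was sequenced from splenic B cells of C57BL/6 mice aged 8 to 12 weeks, cultured for 24 h on irradiated CD40LB cells, a fibroblast feeder line that presents CD40 ligand and secretes BAFF, with IL4 at 40 ng/ml. Spleen cells were enriched for B cells with an isolation kit before culture, and the feeder cells were depleted with antibody to H-2Kd and magnetic beads before RNA extraction. The 4 4A1 KO mice were Eif4a1fl/fl CD23-cre and the 4 controls Eif4a1+/+ CD23-cre, so both groups carried the Cre recombinase, which deletes Eif4a1 from the stage at which splenic B cells begin to express CD23. Each genotype had 1 male and 1 female in batch A (replicates 1 and 2) and 1 male and 1 female in batch B (replicates 3 and 4). Replicate 1 of both genotypes was set aside in the study for low viability, so the fitted changes compared 3 libraries with 3, and the values of all 8 libraries are given beside them.

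A snoRNA host gene carries small nucleolar RNAs in its introns. After splicing, the introns are trimmed to snoRNAs, which guide the modification of ribosomal RNA in the nucleolus, and the exons are joined to a capped and polyadenylated RNA that enters the cytoplasm. Many noncoding hosts hold only short open reading frames in that RNA, and a ribosome that stops upstream of an exon junction can commit the RNA to nonsense-mediated decay (NMD), a process that depends on UPF1. Gas5 was named for its accumulation in growth-arrested cells, and its RNA, like that of several other hosts, is known to be stabilised when translation is blocked. Eif4a1 encodes the DEAD-box helicase of the eIF4F cap-binding complex, which unwinds the 5′ ends of mRNAs for translation initiation.

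The sequences around the annotated start sites of 5 of these genes are shown because known members of the class begin with a terminal oligopyrimidine tract, a run of pyrimidines at the cap that ties translation of the RNA to growth signals. The RefSeq promoter table (GRCm38.p6) had an entry for 8 of the 10 genes and none for Snhg4 or Snhg6. Each line holds 20 bases before the start and 40 from the start on. Capitals mark the longest run of a C followed by at least 4 more pyrimidines (C or T) within a window from 10 bases before to 20 bases after the start. Gas5 had 2 entries, of which the upstream one, at chr1:161034581-161034640, has no such run and the downstream one is shown.
Gas5, chr1:161035146-161035205, plus strand: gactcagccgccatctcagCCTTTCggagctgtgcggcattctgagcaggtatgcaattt
Snhg12, chr4:132308658-132308717, plus strand: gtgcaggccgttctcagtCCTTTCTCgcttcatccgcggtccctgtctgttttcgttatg
Snhg8, chr3:123508297-123508356, minus strand: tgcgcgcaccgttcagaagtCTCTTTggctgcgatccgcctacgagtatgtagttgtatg
Snhg15, chr11:6528721-6528780, minus strand: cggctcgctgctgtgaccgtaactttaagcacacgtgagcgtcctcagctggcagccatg
Snhg20, chr11:117076763-117076822, plus strand: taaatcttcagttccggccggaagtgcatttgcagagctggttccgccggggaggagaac

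Such a run was found in 5 of the 9 entries (Gas5, Snhg3, Snhg5, Snhg8 and Snhg12), against 35.8% of all 32851 promoters in the table. On the opposite strand it was found in 2 of the 9 entries, against 40.7% of all promoters. In Gas5 the run began at base -1, in Snhg12 at base -2 and in Snhg8 at base 1, counted from the annotated start as base 1. In Snhg3 it began at base 3 and in Snhg5 at base 10, whereas Snhg15 and Snhg20 had no such letters in this window.

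The spliced transcripts were examined in the GENCODE M39 annotation of GRCm39. Gas5 (chr1:160861793-160866118) has 11 exons and 9 snoRNA genes, and Snhg1 (chr19:8700319-8703812) has 10 exons and 8 snoRNA genes, whereas Snhg15 (chr11:6473829-6478870), Snhg6 (chr1:9926809-10014504) and Snhg8 (chr3:123301192-123302578) each hold 1 snoRNA and Snhg20 (chr11:116966617-116969792) 1 small Cajal body RNA. In the 8 genes whose canonical transcript is noncoding and spliced, the reading frame that begins at the first ATG held 3 to 53 codons before its stop. That stop lay 90 to 852 bases upstream of the last exon junction, 422 bases in Gas5, 852 bases in Snhg15 and 90 bases in Snhg3. The canonical Snhg12 transcript has 1 exon and so no junction. The row named Snhg4 is annotated as protein-coding, and 81.0% of its exonic bases are also exonic in Matr3 on the same strand, so its counts cannot be told apart from those of Matr3, a nuclear RNA-binding protein. Snhg3 shares 64.2% of its exonic bases with Rcc1, the exchange factor of the Ran GTPase, on the same strand.

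Library depth was 39890141 to 43210858 counted reads in the controls and 31727557 to 42705798 in 4A1 KO, the lowest being replicate 1 of 4A1 KO. Eif4a1 itself was at 748 to 940 CPM (TMM-normalised counts scaled by library size) in the controls and at 556 to 689 CPM in 4A1 KO, and these ranges did not overlap. Its log2 fold change was -0.44 ± 0.05 (SE, n = 3 per genotype; edgeR adjusted p = 1.83e-05), on a row that also counts exons outside the floxed exons. All 8 B cell markers were measured, and 4 of them (Cd22, Cd79a, Cd79b and Cr2) were called lower in 4A1 KO (all genes, 13.6%). Of 7 tested fibroblast markers 0 were called higher and 1 lower (Col3a1), with 2 of 7 values positive (all genes, 11.7% higher and 13.6% lower). But without replicate 2, of 6 tested 2 were called higher (Fn1 and Thbs1) with 6 of 6 positive, where 1393 of 14352 genes were called higher. Fn1 was also called higher under DESeq2. Of 3 tested myeloid markers 1 was called higher (Adgre1) and 0 lower, with 2 of 3 positive (all genes, 11.7% higher and 13.6% lower). With all 8 libraries neither Col3a1 nor Adgre1 was called, Col3a1 at -0.91 (adjusted p = 0.232) and Adgre1 at 0.47 (adjusted p = 0.0138), and both calls were also lost without the replicate block (adjusted p = 0.320 and 0.05003) and without replicate 4, and that of Col3a1 without replicate 3 (adjusted p = 0.0814) and under DESeq2 (adjusted p = 0.109). The summed level of 10 fibroblast markers was 3.85 to 18.3 TPM (transcript abundance scaled by length and depth) in the controls and 6.09 to 11.2 in 4A1 KO, that of 6 T cell markers 1.03 to 2.65 and 0.779 to 1.57, and that of 6 myeloid markers 2.71 to 5.32 and 4.02 to 6.22. The part of these cells in the results below was not tested.

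Gas5, Snhg1, Snhg6, Snhg15 and Snhg20 rose in 4A1 KO B cells, Snhg20 to 2.96 times, Snhg15 to 1.77 times, Snhg6 to 1.63 times and Gas5 and Snhg1 to 1.44 times the control level. Calls required both an absolute log2 fold change above 0.5 and an adjusted p below 0.05 (edgeR, 3 libraries per genotype, batch and sex as covariates, adjusted over 14218 genes). By this rule 5 of the 10 hosts were called higher and 0 lower, where 11.7% of all genes tested were called higher and 13.6% lower. The median log2 fold change of the 10 hosts was 0.40, against 0.01 for all genes tested, and 9 of the 10 values were positive. Here and in later summaries the 10 hosts include the row named Snhg4 (0.21), which cannot be told apart from Matr3. With all 8 libraries the same 5 hosts were called higher, at 1.41 for Snhg20, 0.80 for Snhg15, 0.69 for Snhg6 and 0.56 for Gas5 and Snhg1 on the log2 scale, against 11.3% of the genes tested. In bulk RNA, more cells that hold a transcript and more of it per cell cannot be told apart.

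**Figure D1:**
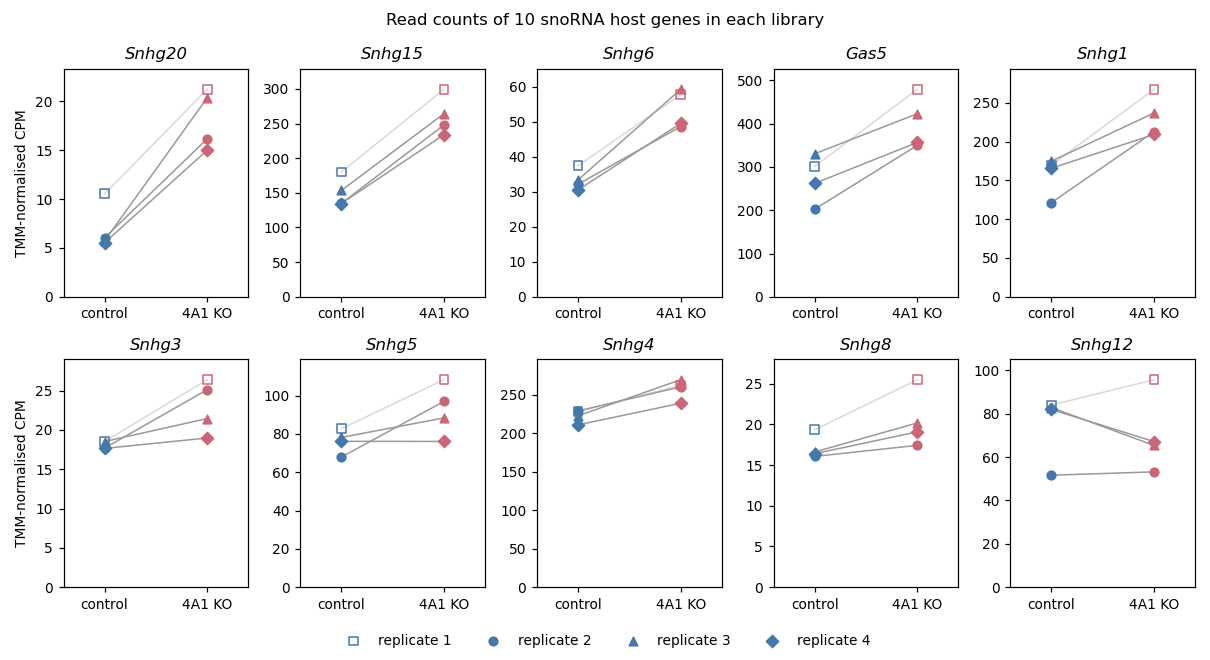
TMM-normalised CPM of each host gene in the 8 libraries, with control on the left and 4A1 KO on the right of each panel. Lines join libraries of the same replicate number (same batch and sex), and open squares mark replicate 1, which was left out of the fitted changes. In the panels of Snhg20, Snhg15, Snhg6, Gas5 and Snhg1 every 4A1 KO point lies above every control point, whereas Snhg12 overlaps.

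Snhg20 had the largest change among the 10 hosts. It was at 10.5, 6.04, 5.73 and 5.53 CPM in control replicates 1 to 4 and at 21.2, 16.2, 20.4 and 15.0 CPM in the 4A1 KO replicates. The groups did not overlap, and control replicate 1, a library of the pair set aside, stood above the other controls. The log2 fold change was 1.57 ± 0.11 (SE; 95% interval 1.32 to 1.81, adjusted p = 1.16e-06), on 238 to 826 counted reads per library. By pair of the same number, the log2 ratio was 1.01, 1.42, 1.83 and 1.44. Per length, Snhg20 was one of the least abundant of the hosts, at 11.2 ± 3.48 TPM in the controls and 28.1 ± 1.75 TPM in 4A1 KO (SD, n = 4).

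Snhg15 had the most even change between pairs among the 5 hosts called. Its controls were at 180, 135, 153 and 135 CPM and its 4A1 KO libraries at 300, 248, 264 and 234 CPM, so the lowest 4A1 KO value was above the highest control. The log2 fold change was 0.82 ± 0.05 (SE; 95% interval 0.72 to 0.93, adjusted p = 4.79e-07), and the 4 pairs gave 0.73, 0.88, 0.78 and 0.80. Snhg6 was at 37.4, 32.1, 33.4 and 30.5 CPM in the controls and at 57.7, 48.6, 59.2 and 49.5 CPM in 4A1 KO, again without overlap. Its log2 fold change was 0.71 ± 0.07 (SE; 95% interval 0.56 to 0.86, adjusted p = 6.51e-06), with pair values of 0.63, 0.60, 0.83 and 0.70.

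Gas5 and Snhg1, the hosts with the most snoRNAs, rose by a smaller ratio. Gas5 was at 301, 203, 331 and 262 CPM in the controls and at 480, 350, 423 and 357 CPM in 4A1 KO. The groups did not overlap, and control replicate 2 was the lowest of the 8 libraries. The log2 fold change of Gas5 was 0.53 ± 0.08 (SE; 95% interval 0.33 to 0.73, adjusted p = 0.00193). Snhg1 was at 170, 121, 175 and 166 CPM in the controls and at 267, 213, 237 and 209 CPM in 4A1 KO, with control replicate 2 again the lowest. Its log2 fold change was 0.53 ± 0.09 (SE; 95% interval 0.30 to 0.75, adjusted p = 0.00379).

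Both values lay close to the 0.5 threshold, so their calls depended on the fit. Without replicate 2 the log2 fold changes were 0.40 (adjusted p = 0.00277) for Gas5 and 0.39 (adjusted p = 0.00426) for Snhg1, both below the threshold. The hosts called were then Snhg6, Snhg15 and Snhg20, so 3 of the 10, where 1393 of 14352 genes tested were called higher. Without pairing of the replicates Gas5 had a log2 fold change of 0.51 with adjusted p = 0.0501, and was no longer called. Against a null of an absolute log2 fold change of up to 0.5 (glmTreat), the called hosts were also Snhg6, Snhg15 and Snhg20. By that test 651 of 14218 genes were called higher.

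Snhg3, Snhg4, Snhg5 and Snhg8 were not called. Snhg3 was at 18.5, 17.7, 18.5 and 17.7 CPM in the controls and at 26.4, 25.1, 21.5 and 19.0 CPM in 4A1 KO, so the groups did not overlap but 4A1 KO replicate 4 was near the controls. Its log2 fold change was 0.27 ± 0.09 (SE; adjusted p = 0.0257), 0.33 (adjusted p = 0.00424) with all 8 libraries and 0.16 (adjusted p = 0.227) without replicate 2, and Rcc1, which shares its exons, was at -0.30 ± 0.05 (SE; adjusted p = 0.000253). The row named Snhg4 had a log2 fold change of 0.21 ± 0.05 (SE; adjusted p = 0.00261), also 0.21 with all 8 libraries (adjusted p = 0.00133), beside 0.19 ± 0.05 (SE; adjusted p = 0.00356) for Matr3. The Snhg4 row held 8293 to 10927 reads per library but only 14.2 to 25.2 TPM, and no statement on Snhg4 RNA can be made from it.

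Snhg5 ranged from 67.9 to 82.7 CPM in the controls and from 76.1 to 108 CPM in 4A1 KO, with overlap between the groups. Its log2 fold change of 0.23 ± 0.10 (SE) did not pass the test (adjusted p = 0.0830), and pair 4 gave -0.00 where pair 2 gave 0.51. With all 8 libraries it was 0.27 (adjusted p = 0.0117), without replicate 4 it was 0.35 (adjusted p = 0.00317) and without replicate 2 it was 0.09 (adjusted p = 0.382), in each case under the fold threshold, and the adjusted p under DESeq2 was 0.0426. Snhg8 ranged from 16.1 to 19.3 CPM in the controls and from 17.4 to 25.5 CPM in 4A1 KO, and the groups overlapped. Its log2 fold change was 0.21 ± 0.08 (SE; adjusted p = 0.0553), and 0.26 (adjusted p = 0.0253) with all 8 libraries.

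Snhg12 was the 1 host with a negative value. It was at 84.0, 51.6, 82.8 and 81.9 CPM in the controls and at 95.7, 53.2, 65.4 and 67.1 CPM in 4A1 KO. The groups overlapped, and replicate 2 was the lowest library in both genotypes. The log2 fold change was -0.20 ± 0.08 (SE; 95% interval -0.37 to -0.03, adjusted p = 0.0486), and the pair values were 0.19 and 0.04 in batch A and -0.34 and -0.29 in batch B. With all 8 libraries it was -0.09 with adjusted p = 0.717.

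**Figure D2:**
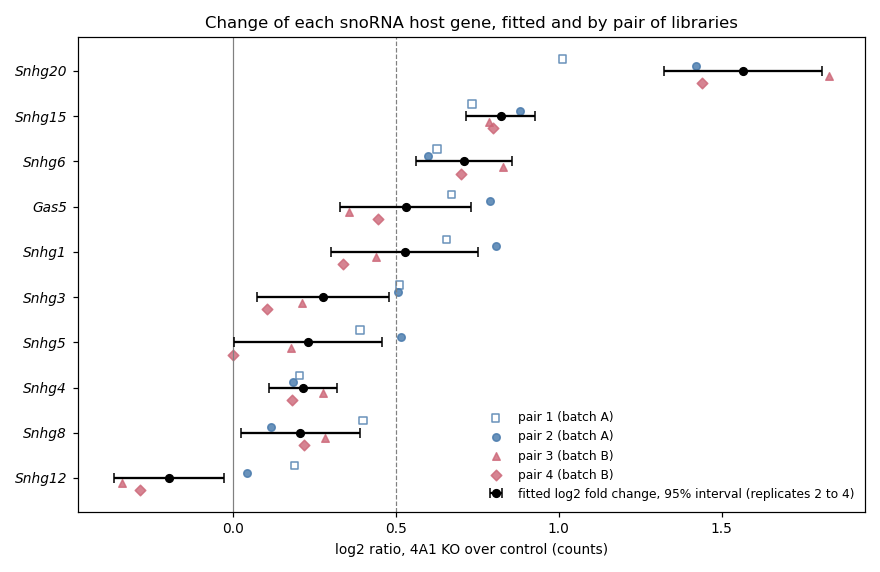
Fitted log2 fold change of each host gene with its 95% interval (black, replicates 2 to 4) and the log2 ratio of each pair of libraries (blue for batch A, red for batch B, open squares for pair 1). The solid line marks no change and the dashed line the 0.5 threshold. Snhg20 stands at 1.57 and Snhg12 at -0.20, and the batch A pairs of Gas5, Snhg1, Snhg3 and Snhg5 lie above their batch B pairs.

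The change by batch was examined with an interaction term over all 8 libraries. Gas5 had log2 ratios of 0.67 and 0.79 in batch A and 0.36 and 0.45 in batch B. Snhg1 had 0.65 and 0.81 in batch A and 0.44 and 0.34 in batch B, Snhg3 had 0.51 and 0.51 against 0.21 and 0.10, and Snhg5 had 0.39 and 0.51 against 0.18 and -0.00. The unadjusted p of the interaction was 0.0147 for Gas5, 0.0237 for Snhg1, 0.0210 for Snhg3 and 0.00658 for Snhg5, but after adjustment over 14211 genes it was 0.999 for each of the 10 hosts. Only 1 gene of all those tested passed for batch (595 at an unadjusted p under 0.05) and 0 for sex (392 at an unadjusted p under 0.05), and for sex the adjusted p of each host was 1.

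The same libraries quantified per length placed the hosts in a wide order of abundance. In the controls Gas5 was at 638 ± 84.1 TPM, Snhg1 at 354 ± 41.0, Snhg15 at 340 ± 37.2, Snhg12 at 134 ± 29.3, Snhg5 at 122 ± 10.9, Snhg6 at 118 ± 6.69, Snhg8 at 61.0 ± 5.41 and Snhg3 at 50.6 ± 2.83 TPM (SD, n = 4). The control ranges of Snhg1 and Snhg15 overlapped, as did those of Snhg12, Snhg5 and Snhg6, and these neighbours were not ordered. In 4A1 KO Gas5 was at 971 ± 155, Snhg15 at 572 ± 40.7, Snhg1 at 516 ± 58.8 and Snhg6 at 186 ± 16.8 TPM (SD, n = 4). The 10 hosts together took 1590 to 2032 TPM in the controls and 2391 to 3129 TPM in 4A1 KO, ranges that did not overlap, and Gas5 alone made up 32.9 to 37.8% of that sum in each library.

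On log2(TPM + 1), 6 of the 10 hosts passed in the higher direction at an adjusted p under 0.05 (limma, 3 libraries per genotype), against 24.1% of 12976 genes. They were the 5 called from counts and Snhg3, whose log2 difference was 0.30 ± 0.07 (SE; adjusted p = 0.0135). Snhg3 no longer passed without replicate 2 (adjusted p = 0.0613) or replicate 3 (0.0733), or with no filter on TPM (0.0634), which also lost Snhg1 (0.0733). Snhg12 passed in the lower direction, with a log2 difference of -0.34 ± 0.08 (SE; adjusted p = 0.0175), but not without the replicate block (adjusted p = 0.191), with all 8 libraries (0.303) or with no filter on TPM (0.0960). Over all 8 libraries, the lowest 4A1 KO value was above the highest control value for the same 6 hosts in TPM, against 16.0% of genes. For each of the 6 the exact two-sided permutation test gave p = 0.0286, the smallest that 4 against 4 libraries allow, unadjusted. The exact p was 0.343 for Snhg12, 0.314 for Snhg4, 0.114 for Snhg8 and 0.0857 for Snhg5.

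The snoRNAs inside these hosts were examined next, and 4 sequences of intervals called higher are shown, 1 from each of 4 hosts (GRCm39, GENCODE M39). Capitals mark box C (ATGATGA or GTGATGA) and box D (CTGA) in the C/D class, which guides 2′-O-methylation, and the ACA that lies 3 bases from the end in the H/ACA class, which guides pseudouridylation.
Gm22357 in Gas5, chr1:160863627-160863709: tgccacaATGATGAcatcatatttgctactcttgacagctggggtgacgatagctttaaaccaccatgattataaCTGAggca
Snord87 in Snhg6, chr1:10012688-10012774: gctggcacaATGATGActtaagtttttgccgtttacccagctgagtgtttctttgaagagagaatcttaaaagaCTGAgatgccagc
Snord99 in Snhg12, chr4:132038002-132038075: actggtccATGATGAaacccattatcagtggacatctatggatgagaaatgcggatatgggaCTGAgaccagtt
Snora9 in Snhg15, chr11:6478033-6478165: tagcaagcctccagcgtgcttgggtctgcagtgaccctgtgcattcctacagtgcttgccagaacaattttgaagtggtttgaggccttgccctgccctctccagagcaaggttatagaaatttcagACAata

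Intervals called higher in 4A1 KO were found in 6 hosts, as the single interval of Snhg6, Snhg15 and Snhg20, 1 of 9 in Gas5, 2 of 8 in Snhg1 and 1 of 4 in Snhg12. Of 31 snoRNA genes inside the 10 hosts 30 had a row, 28 passed the filter on low counts and 7 were called higher and 0 lower, again against 11.7% and 13.6% of all genes. The log2 fold changes ranged from -0.06 to 1.18 with a median of 0.47, and 27 of 28 were positive. These rows may not be independent of their hosts, since most intervals lie wholly within exons that GENCODE M39 gives the host. The authors counted reads over merged isoforms of an Ensembl annotation that was not examined here. Whether the reads over an interval were also counted in its host is therefore not known. Sequenced fragments over such an interval can come from the unspliced host or a retained intron as well as from a snoRNA. The interval of Snora9 in Snhg15 and the 4 of Snhg12 overlap an exon of the canonical host transcript. Fragments over them can also come from that transcript. The number called was 4 without replicate 2, 14 without replicate 3, 7 without replicate 4 and 10 with all 8 libraries. In these fits 1393 of 14352, 1405 of 14347, 1690 of 14337 and 1611 of 14211 genes tested were called higher. The number of intervals called was 3 without the replicate block, 5 with DESeq2, 2 with DESeq2 and shrunken fold changes and 2 with glmTreat. There 1330 of 14218, 1212 of 13753, 1094 of 13753 and 651 of 14218 genes tested were called higher. For the summed CPM of a host's intervals the exact two-sided permutation p over 8 libraries, unadjusted, was 0.0286 for Snhg15 and Snhg20, 0.0571 for Snhg6, 0.114 for Snhg1 and 0.286 for Gas5, and between 0.143 and 0.686 for the other 5 hosts. That test does not use the pairing of the libraries, and by pair the summed CPM was higher in 4A1 KO in 4 of 4 pairs in Gas5, Snhg1, Snhg5, Snhg6, Snhg8, Snhg15 and Snhg20 and in 3 of 4 in Snhg3, Snhg4 and Snhg12.

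The interval of Snora9, the H/ACA snoRNA printed above, had 106, 57, 85 and 76 reads in the controls and 127, 151, 157 and 148 in 4A1 KO. The groups did not overlap, and the log2 fold change was 1.12 ± 0.17 (SE; adjusted p = 0.000219), beside 0.82 for Snhg15. The small Cajal body RNA Gm55431 of Snhg20 had 18, 14, 11 and 13 reads in the controls and 20, 25, 32 and 27 in 4A1 KO, with a log2 fold change of 1.18 ± 0.33 (SE; adjusted p = 0.00933). Snord87 of Snhg6 had 59, 29, 53 and 50 reads in the controls and 59, 55, 83 and 80 in 4A1 KO, with a log2 fold change of 0.78 ± 0.20 (SE; adjusted p = 0.00718). For Snord87 the highest control and the lowest 4A1 KO libraries overlapped. The calls of Snord87 and Gm55431 were lost under DESeq2 and glmTreat, that of Snord87 also without the replicate block and that of Gm55431 without replicate 3. Snora9 stayed called in each of these fits.

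Of the 9 intervals in Gas5, Gm22357 was called (log2 fold change 0.52 ± 0.15, SE, adjusted p = 0.0155), and the other values ran from 0.16 in Gm22489 to 0.49 in Snord80. Of the 8 in Snhg1, Gm23246 (0.98 ± 0.20, SE, adjusted p = 0.00122) and Snord22 (0.58 ± 0.14, SE, adjusted p = 0.00432) were called, and the lowest value was 0.16 in Gm24452. The calls of Gm22357 and Snord22 were lost without replicate 2, without the replicate block and under glmTreat, whereas Gm23246 stayed called. Counts over the snoRNA intervals, set against those of the host, came to 7.74 ± 2.23% for Gas5 in the controls and 7.43 ± 1.35% in 4A1 KO (SD, n = 3). For Snhg1 they came to 8.75 ± 1.72% and 8.62 ± 1.56%. Such a ratio is called a share here, whether or not the host counts include those reads. The exact permutation test of these shares over 8 libraries gave p = 0.714 for Gas5 and a higher p for Snhg1.

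The share was compared in the 8 hosts whose intervals all lie inside their exons in GENCODE M39, and these p-values are unadjusted. The 4 intervals of Snhg12 had log2 fold changes of 0.39 in Snora61, 0.44 in Snora16a, 0.50 in Snora44 and 0.82 in Snord99, the last of which was called (SE 0.30, adjusted p = 0.0373), while Snhg12 itself was at -0.20. The call of Snord99, on 10 to 41 reads per library, was lost without replicate 2 (adjusted p = 0.144), replicate 3 (0.0727) or replicate 4 (0.0710), without the replicate block (0.137) and under DESeq2 (0.241). Their share of the Snhg12 reads was 5.47, 4.75, 8.90 and 4.76% in the controls and 7.88, 8.69, 10.6 and 9.88% in 4A1 KO. It was higher in 4A1 KO in each of the 4 pairs, with overlap between the groups (exact permutation p = 0.0857). For the small Cajal body RNA of Snhg20 the share was 4.27, 5.74, 4.62 and 5.39% in the controls and 2.98, 4.01, 3.87 and 4.20% in 4A1 KO. It was lower in each of the 4 pairs and without overlap (exact permutation p = 0.0286). In Snhg15 the share was 1.23 ± 0.16% in the controls and 1.51 ± 0.06% in 4A1 KO (SD, n = 3), higher in 3 of the 4 pairs (exact permutation p = 0.0857). In Snhg5 it was 0.126 ± 0.054% and 0.239 ± 0.092%, higher in each of the 4 pairs but on at most 11 reads per library (exact permutation p = 0.200). For Snhg6 and Snhg8 the exact p was 0.886 and 0.771. The intervals of Snhg3 and Snhg4 lie wholly or in part outside the GENCODE M39 exons of their hosts, and their ratios are not given. The log2 fold changes of the remaining intervals were 0.28 in Snora73b and -0.06 in Snora73a for Snhg3, 0.43 in Snora24 for Snhg8 and 0.79 in Snora74a for Snhg4, and none was called.

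**Figure D3:**
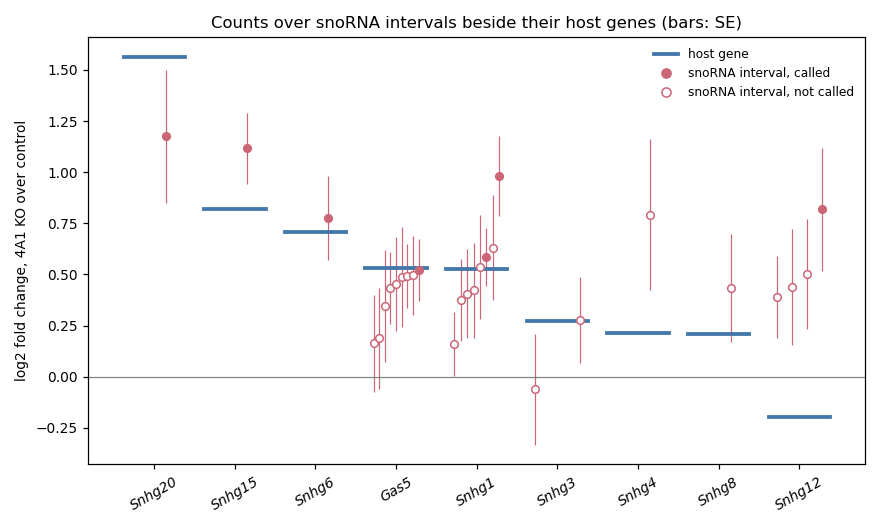
Log2 fold change (4A1 KO over control) of counts over each tested snoRNA interval (points with SE, filled where called) beside that of its host gene (blue bars). The 9 points of Gas5 lie at or below its bar, the 8 of Snhg1 lie on both sides, and all 4 of Snhg12 lie above.

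The other genes of the pathway were taken as lists. The counts are read beside the 11.7% of all genes tested that were called higher and the 13.6% called lower. Of 5 tested noncoding hosts outside the 10, 3 were called higher and 0 lower, with a median log2 fold change of 0.59. Snhg17 was at 0.93 ± 0.06 (SE; adjusted p = 4.79e-07), Dancr at 1.54 ± 0.13 (adjusted p = 2.82e-06), Snhg16 at 0.59 ± 0.06 (adjusted p = 7.88e-06) and Zfas1 at 0.32 ± 0.06 (adjusted p = 0.00119), the last below the fold threshold. Of 217 tested protein-coding genes with a snoRNA inside their span, 23 were called higher and 22 lower, which is 10.6% and 10.1%, with a median of 0.09. Those with the smallest adjusted p were Rpl12 (0.88 ± 0.04), a ribosomal protein, Eif4g2 (0.70 ± 0.04), a relative of the eIF4G scaffold, and Tpt1 (0.67 ± 0.04) in the higher direction. In the lower direction they were Hspa8 (-1.02 ± 0.06), a constitutive heat shock chaperone, Prps2 (-0.56 ± 0.06), an enzyme of phosphoribosyl pyrophosphate synthesis, and Nans (-0.81 ± 0.08), an enzyme of sialic acid synthesis.

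Of 20 NMD factors 1 was called higher and 0 lower, with a median log2 fold change of 0.00. Without replicate 4, 2 were called higher (Smg1 and Upf3a) and 1 lower (Upf3b, at -0.56), where 1690 of 14337 genes tested were called higher and 2059 lower. Under glmTreat 0 were called (adjusted p = 0.132 for Upf3a), where 651 of 14218 genes were called higher and 919 lower. Upf3a, a paralogue of the exon junction adaptor Upf3b, was the called gene at 0.59 ± 0.06 (SE; adjusted p = 8.83e-06). The next by adjusted p were Casc3, an exon junction complex component, at 0.43 ± 0.05, the kinase of UPF1 Smg1 at 0.44 ± 0.06 and the endonuclease Smg6 at 0.40 ± 0.06, all below the fold threshold. Of the 11 NMD factors with an adjusted p under 0.05, 7 had a positive and 4 a negative value, the latter being Upf3b at -0.46 ± 0.08 (SE; adjusted p = 0.000558), Upf2 at -0.21, Nbas at -0.22 and Pnrc2 at -0.18. Of 19 protein-coding genes known as NMD targets or for isoforms that are, 2 were called higher and 0 lower, with a median of 0.08. Without replicate 4, 5 were called higher (Atf3, Atf4, Ern1, Ptbp2 and Rpl12). Under DESeq2 it was 3, where 1212 of 13753 genes were called higher, and under glmTreat 1. Rpl12 was at 0.88 ± 0.04, Ern1, a sensor of unfolded proteins, at 0.72 ± 0.12, and below the fold threshold Atf4, a stress-response transcription factor, at 0.46 ± 0.05 and Hnrnpdl at 0.38 ± 0.05 (SE). Of the 11 with an adjusted p under 0.05, Map3k14 at -0.32, Ddit3 at -0.29 and Srsf7 at -0.22 were negative and the others positive. Of 17 proteins of snoRNA particles and their assembly, Znhit3, a box C/D assembly factor, was called lower at -0.59 ± 0.08 (SE; adjusted p = 7.86e-05), and 0 were called higher.

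**Figure D4:**
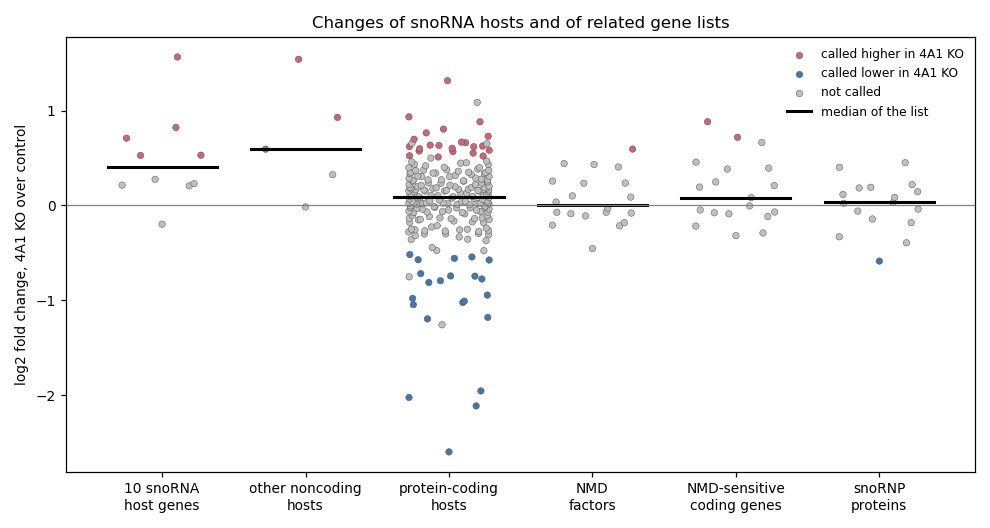
Log2 fold change (4A1 KO over control) of every tested gene in 6 lists, with red points called higher, blue points called lower, grey points not called and black bars at the list medians. The medians of the 10 hosts and of the other noncoding hosts are 0.40 and 0.59, and those of the other 4 lists lie between 0.00 and 0.09.

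The pattern of the 10 hosts across the 8 libraries, taken as the mean of their standardised log2 CPM, ran from -1.20 in control replicate 2 to -0.18 in control replicate 1, and from 0.12 in 4A1 KO replicate 4 to 1.42 in 4A1 KO replicate 1. Of 8373 other genes that averaged 10 CPM or more, the closest to this pattern by Pearson r over the 8 libraries were Hsf1 (0.990), the heat shock transcription factor, Ddx23 (0.990), a spliceosomal helicase, Cln3 (0.989), a lysosomal membrane protein, Tmem259 (0.988) and Wiz (0.988). These r values are a description over libraries that also differ in genotype. The log2 fold changes of these 5 genes were 0.34 in Hsf1, 0.17 in Ddx23, 0.51 in Cln3, 0.48 in Tmem259 and 0.48 in Wiz.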

How the data were processed

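Splenic B cell RNA of 8 libraries, grouped by the genotype in their labels, was analysed. The authors trimmed the reads with Trim Galore 0.6.6 and mapped them to GRCm39 with HISAT2 2.1.0. They deposited raw read counts per gene from Seqmonk, over merged isoforms of an Ensembl annotation and on the opposing strand. The authors deposited TPM calculated from the same alignments with StringTie 2.1.1. How multi-mapping reads were counted, and how ribosomal RNA was removed, is not given in the sources used here.

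The 10 members and the gene lists were chosen with earlier results of these data known. Counts were tested in R 4.3.3 with edgeR 4.0.16 (filterByExpr, TMM, robust quasi-likelihood F test, two-sided, Benjamini-Hochberg over all genes), with batch and sex as covariates, in place of the DESeq2 test of the study. In the 6 libraries fitted these covariates are the same as a replicate block. The pairing follows from the batch and sex labels, and the deviations of same-numbered libraries from their genotype means correlated at 0.59, 0.50 and 0.43, against a mean of -0.25 for other numbers. TPM were tested with limma 3.58.1 on log2(TPM + 1) over genes that averaged 1 TPM or more, a scale that understates changes of low genes. The libraries of a genotype came from separate mice, so p-values measure the spread between mice.

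Named genes were the 10 hosts, Eif4a1, the 4 with the smallest adjusted p of the other noncoding hosts, NMD factors and NMD-sensitive genes, the 3 called protein-coding hosts with the smallest adjusted p in each direction, called snoRNA particle proteins, tested snoRNAs and the 5 genes of most similar pattern. Rcc1 and Matr3 were added for the exons they share with a host. Upf3b, Upf2, Nbas, Pnrc2, Atf3, Ptbp2, Map3k14, Ddit3, Srsf7 and the called cell type markers were added after their values were seen. Of 53242 identifiers 52647 matched GENCODE M39. The fitting code was checked on data made with known answers. Alternatives were DESeq2 1.42.0, 3 other scalings, other filters, glmTreat, no block, all 8 libraries and each replicate left out.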

Additional observations from a re-analysis of the deposited data

Results flagged for a closer look

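In 40 groups of 4 libraries (10 hosts, 2 genotypes, CPM and TPM), 6 had a library that stood apart, as the gap to its nearest neighbour over the whole range of the 4 values (the critical value of Dixon at the 95% level). Chance gives about 1 in 20 such groups, which is 2 of 40. Control replicate 2 was low in 3 of them. Snhg12 was at 51.6 CPM there and at 81.9 CPM in the nearest control (gap over range 0.937). Snhg1 was at 121 CPM against 166 CPM in the nearest control (0.829494) and at 293 TPM against 366 TPM (0.829135). Control replicate 1, set aside in the study for low viability, was high in the other 3. Snhg20 was at 10.5 CPM against 6.04 CPM in the nearest control (0.899), Snhg6 at 128 TPM against 116 TPM (0.842) and Snhg8 at 19.3 CPM against 16.6 CPM (0.833). What sets these libraries apart was not tested.

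Snhg12 also changed sign between batches. Its log2 ratio was 0.19 and 0.04 in the batch A pairs and -0.34 and -0.29 in the batch B pairs. The interaction of genotype with batch was -0.44 (batch B minus batch A) with an unadjusted p of 0.287 and an adjusted p of 0.999 (edgeR), so the difference did not pass the test.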

How the results depend on the processing

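The calls of Snhg6, Snhg15 and Snhg20 held under all 14 alternatives to the count test, with log2 fold changes of 0.65 to 0.76, 0.79 to 0.84 and 1.41 to 1.64. Gas5 and Snhg1, near the fold threshold, did not keep theirs. Under glmTreat they stayed at 0.53 and 0.53 with adjusted p = 0.634 and 0.673, the hosts called fell from 5 to 3 and all genes called from 3599 to 1570, since that test asks for more than the threshold. Without the replicate block Gas5 was at 0.51 (adjusted p = 0.0501), and of the other hosts only Snhg12 lost a call without it, in TPM (adjusted p = 0.191). Leaving out 1 replicate at a time gave 3 to 5 hosts called, 0.40 to 0.62 for Gas5 (adjusted p 0.00163 to 0.0193) and 0.39 to 0.62 for Snhg1 (adjusted p 0.000446 to 0.0356), the lowest without replicate 2. In these fits 1393 to 1690 genes were called higher, of 14337 to 14352 tested. With no filter on TPM, 4 hosts differed in TPM in place of 7 (Snhg1, Snhg3 and Snhg12 were lost). Scaling by library totals was added after seeing the data and gave the same 5 hosts. No host changed sign in a call. Snhg3 lay between 0.16 and 0.36, Snhg5 between 0.09 and 0.35 and Snhg12 between -0.32 and -0.09. Snora74a, Gm55431 and both Snhg5 snoRNA rows rest on under 35 reads in each library.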

Other observations

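Reads over snoRNA intervals were also unequal between libraries of 1 genotype. The share (interval counts over host counts) was compared in the 8 hosts whose intervals lie inside their GENCODE M39 exons. Control replicate 2 had the lowest share of all 8 libraries in 6 of the 8 hosts, but the highest in Snhg20 (5.74%). In Gas5 it was 5.41%, where the other controls had 7.45, 9.86 and 7.96%. In Snhg6 it was 2.23%, against 3.94, 3.82 and 3.77% in the other controls. In 4A1 KO replicate 2, from the same batch and sex, the shares were 5.88% in Gas5 and 2.94% in Snhg6, the lowest of the 4 4A1 KO libraries in both. Its share was also the lowest of these in Snhg1 (6.84%), but not in Snhg5, Snhg8, Snhg12 or Snhg20. In Snhg15 it was the highest (1.58%).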
